A study of Homo sapiens with 12 samples.

Results

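PANC-1 cells, an established line from a human carcinoma of the pancreatic duct, were transfected with a control siRNA for 72 h, and the RNA of cells given tumour necrosis factor (TNF) for 4 h was set against that of unstimulated cells with the same siRNA. Of the 12 libraries in the series, 4 made up this comparison, 2 with TNF and 2 without. They were chosen by the words in the submitters' file names, which name the control siRNA with 4 h for the TNF libraries and the control siRNA with CLM for the unstimulated ones. The labels conflict on the time: the TNF libraries carry titles that give TNFa for 30 min, while their file names give 4 h. No label explains CLM, which is read here as no TNF, and the titles of this pair say unstimulated. Across the series, title and file name differ for 8 of the 12 libraries, in the siRNA, in TNF or in its time. Every statement on 4 h or 30 min below therefore rests on the file names. For the 4 libraries of this comparison, the siRNA and the split into TNF and unstimulated are the same by either source. This does not hold for the 30 min libraries used further below.

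TNF was given at 100 ng/mL, per the labels. The groups used were TNF 4 h with control siRNA, TNF 30 min with control siRNA, TNF 4 h with SIK3 siRNA, unstimulated with SIK3 siRNA and unstimulated with control siRNA, 2 biological replicates each, marked B and C. The 30 min pair is titled as unstimulated cells with the other siRNA, and the unstimulated SIK3 siRNA pair is titled TNFa 30 min. Among the labels, calling that SIK3 siRNA pair unstimulated rests on the reading of CLM alone. For the other siRNA the titles write siAS1, whereas the sample characteristics write SIK3. All cells were transfected, so no group shows TNF without siRNA. Levels are CPM (counts scaled to an equal library total) with TMM factors (trimmed mean of M-values), and a gene is called where the adjusted p of edgeR's quasi-likelihood test, with the replicate letter as a block, is under 0.05. The labels do not say how the replicate cultures were kept apart, so p-values measure the spread between these libraries only.

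TNF binds TNFR1 at the cell surface, where TRADD, TRAF2, RIPK1 and the cIAP ubiquitin ligases assemble a complex that activates the IKK kinases. IKK marks the IκB proteins for destruction and frees NF-κB dimers to enter the nucleus. Their targets include chemokines, adhesion molecules, survival genes and the inhibitors that shut the pathway down again, and the same receptor also feeds the JNK, p38 and ERK kinases.

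Promoters are shown for the strongest adhesion, chemokine and inhibitor genes that hold a κB-type run, because these lists are textbook targets of NF-κB. The windows run from 250 bases before to 50 after the gene start, from RefSeq on GRCh38.p14, 5′ to 3′ on the strand of the gene, with the κB-type match, GGG then any 3 bases then TTCC on either strand, in capitals.
SELE, E-selectin, chr1:169734030-169734329, minus strand: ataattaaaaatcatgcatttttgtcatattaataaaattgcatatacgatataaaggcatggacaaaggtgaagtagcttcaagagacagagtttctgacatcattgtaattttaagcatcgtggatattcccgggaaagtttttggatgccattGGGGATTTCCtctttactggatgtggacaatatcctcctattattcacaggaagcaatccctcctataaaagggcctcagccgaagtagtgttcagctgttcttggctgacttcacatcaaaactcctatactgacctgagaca
CCL20, a chemokine, chr2:227813592-227813891, plus strand: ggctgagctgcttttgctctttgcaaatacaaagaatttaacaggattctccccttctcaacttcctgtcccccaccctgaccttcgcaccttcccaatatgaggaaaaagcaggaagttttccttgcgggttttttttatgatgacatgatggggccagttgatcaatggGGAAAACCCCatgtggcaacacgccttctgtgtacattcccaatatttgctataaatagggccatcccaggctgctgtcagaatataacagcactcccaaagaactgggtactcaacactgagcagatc
SDC4, syndecan-4, chr20:45348375-45348674, minus strand: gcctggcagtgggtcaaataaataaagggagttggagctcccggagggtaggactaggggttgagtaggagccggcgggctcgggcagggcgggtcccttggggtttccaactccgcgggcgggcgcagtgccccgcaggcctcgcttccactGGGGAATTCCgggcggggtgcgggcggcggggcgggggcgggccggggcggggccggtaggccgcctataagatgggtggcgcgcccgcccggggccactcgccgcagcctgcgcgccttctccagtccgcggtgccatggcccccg
TNFAIP3, the NF-κB inhibitor A20, chr6:137867009-137867308, plus strand: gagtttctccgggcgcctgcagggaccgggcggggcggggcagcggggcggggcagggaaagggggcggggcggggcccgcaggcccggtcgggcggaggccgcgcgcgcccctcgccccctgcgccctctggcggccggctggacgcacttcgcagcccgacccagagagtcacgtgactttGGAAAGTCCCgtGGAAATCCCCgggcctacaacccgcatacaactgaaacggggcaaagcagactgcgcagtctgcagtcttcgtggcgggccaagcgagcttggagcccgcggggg
The match began 94 bases before the start in SELE (GGGGATTTCC), 97 before it in SDC4 (GGGGAATTCC) and 79 before it in CCL20 (GGAAAACCCC, the reverse strand). TNFAIP3 held a pair of reverse-strand matches, GGAAAGTCCC at 67 and GGAAATCCCC at 55 bases before the start. On both strands of windows of this length, the run was present in 7.64% of the 11342 tested genes with a promoter in the table, and in 6.52% of all 35116 promoters. It was present in 12.4% of the 1421 promoters of genes that were higher with TNF, in 13.8% of the 195 of genes more than 4-fold higher, and in 6.2% of the 1629 of genes that were lower. Among chemokines 8 of 12 promoters held it, against 3 of 14 for NF-κB inhibitors and 2 of 11 for adhesion molecules. The core of the cAMP response element, TGACG on either strand, was present in 33% of the promoters of lower genes, 31.6% of those of higher genes and 34.3% of those of all tested genes, but in 20.5% of the 195 of genes more than 4-fold higher and in 7 of 16 of the cAMP-responsive list. These matches describe letters in the window and show no binding.

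With TNF, 1883 of 16695 genes tested rose (11.3%) and 2045 fell (12.2%), so 23.5% were called. The higher genes moved further: their median fold was 1.61, with 708 over 2-fold and 308 over 4-fold, against a median of 1.35, 261 over 2-fold and 54 over 4-fold among the lower genes. Of the higher genes 1713 were protein-coding, and of the lower genes 1918. Over all genes tested the median log2 fold change was −0.03. Without the replicate block 1501 genes were called, 923 higher and 578 lower, and without the TNF B library 2618 were, 1259 of them lower. The TNF libraries lay wholly above the unstimulated ones for 2993 genes (17.9%) and wholly below them for 3956 (23.7%). These shares were above the 11.3% and 12.2% called, and with 2 libraries a group such separation is no test in itself. In RNA of whole cultures, fewer cells of a type and less RNA per cell cannot be told apart. Without TMM, on library totals, the median of all genes lay at −0.11 on the log2 scale and the lower genes numbered 3323, so that 32.2% of calls were higher, against 47.9% with TMM. With DESeq2 size factors the balance turned the other way, 2031 higher against 1826 lower (52.7% higher). The share higher was 55.1% with the DESeq2 Wald test, 54.8% with only the 4 libraries fitted and 52.5% at an adjusted p under 0.01. Which direction held more calls therefore depended on the processing.

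**Figure D1:**
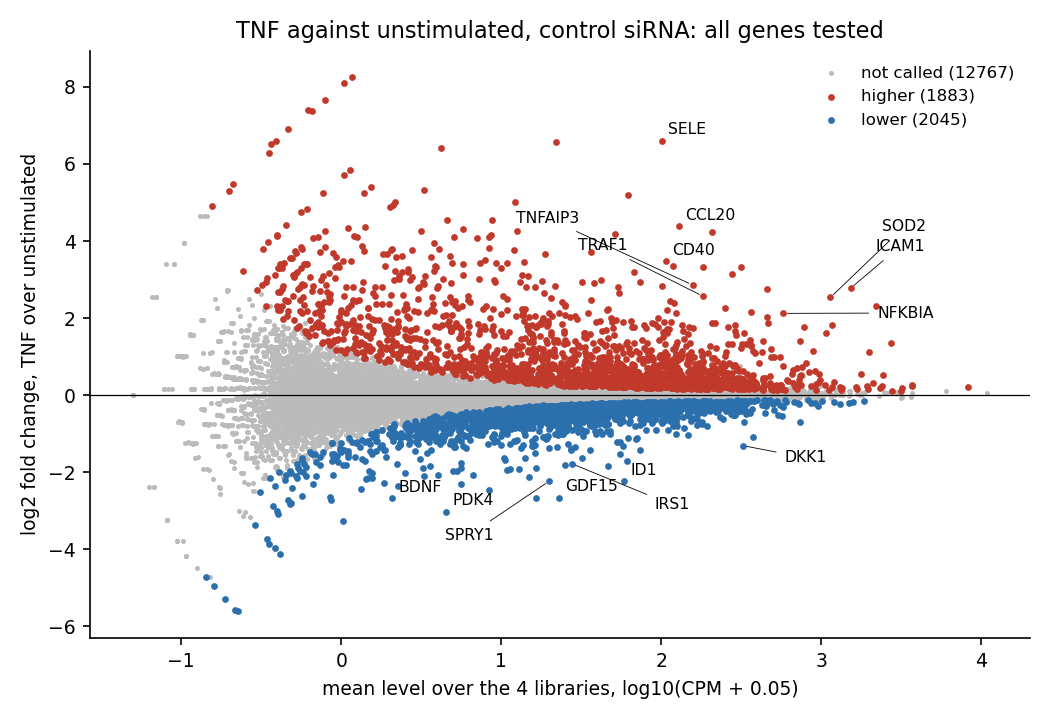
Log2 fold change of TNF over unstimulated libraries (y axis) against the mean level over the 4 libraries (x axis, log10 of CPM + 0.05) for all 16695 genes tested, with the 1883 higher genes in red, the 2045 lower genes in blue and the others in grey. The higher genes reach further from 0 than the lower ones, with SELE at 6.61.

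Gene counts ran from 13535825 to 17448085 in the TNF libraries and from 14323580 to 19025746 in the unstimulated ones, and 3 counts, the limit for a gene with no count, stood for 0.158 to 0.222 CPM. That limit covers counting error only. Multimapping reads were 4.94 and 41.5% of reads in TNF B and C, against 5.38 and 38.2% in unstimulated B and C, so this difference followed the letter and not TNF. Of 8 ductal markers 7 exceeded 1 CPM in all 4 libraries, with keratins KRT8, KRT18 and KRT19 leading, and their sum was 5714 to 6335 CPM with TNF and 5908 to 7026 CPM without. The sums of 8 markers each were 4.35 to 4.92 CPM with TNF and 3.59 to 3.96 CPM without for immune cells, 2.29 to 2.37 and 1.06 to 1.16 CPM for endothelial cells, and 17.1 to 19.1 and 19.1 to 19.2 CPM for fibroblasts. The immune genes PTPRC, CD3E and NKG7 and the endothelial gene TEK had no count in these libraries. SIK3, the target of the other siRNA (ENSG00000160584, chromosome 11, 116843402 to 117098437, minus strand, in GENCODE 29 on GRCh38), was at 34.4 and 65.2 CPM in the TNF libraries and 34.3 and 60.4 CPM in the unstimulated ones (edgeR adjusted p = 0.723), and at 18.3 and 22.8 CPM in the TNF 4 h libraries with SIK3 siRNA.

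Counts of calls per list fell without the replicate block in most lists, and are given below in that form where they moved by more than 1.5 times. This covers TNF 4 h against unstimulated only, since list counts without the block were not made for the other comparisons. Each gene list below was chosen with earlier results of these data known, and its counts are to be read against the 11.3% of all genes that rose and the 12.2% that fell. The plot of calls per list shows high shares of rises in NF-κB subunits, chemokines, adhesion molecules and HLA class I genes. Falls outnumber rises among ERK feedback, stress, redox, cAMP-responsive, and Notch and Wnt genes. The same holds for the glucose and hypoxia-linked, cyclin, and replication and mitosis lists. Cholesterol and fatty acid genes hold more rises than falls.

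**Figure D2:**
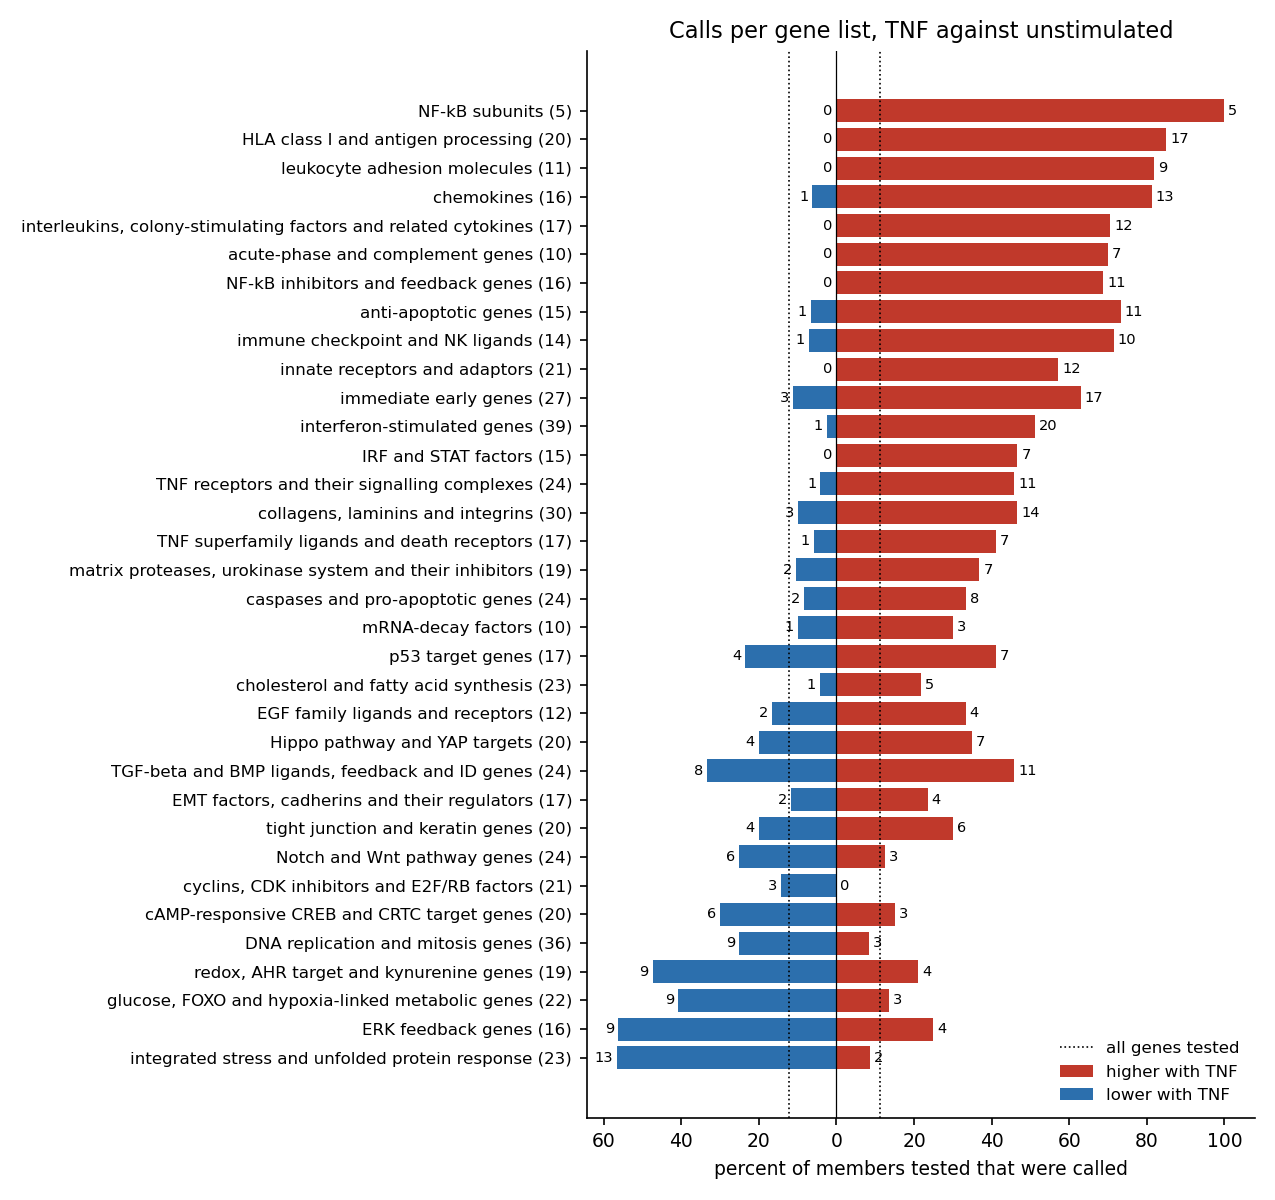
Percent of the tested members of each list that were higher (red, to the right) or lower (blue, to the left) with TNF, with the number called at the end of each bar and the number tested in brackets. Dotted lines mark all genes tested, 11.3% higher and 12.2% lower.

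The receptors themselves changed little. TNFRSF1A, which encodes TNFR1, was at 47.2 and 57.4 CPM in the TNF libraries and 67.6 and 75.5 CPM in the unstimulated ones, a fall of 1.37-fold (edgeR adjusted p = 1.90e-05). TNFRSF1B, the second TNF receptor, rose 1.38-fold, to 77.03 and 76.8 CPM with TNF against 54.7 and 56.6 CPM without (edgeR adjusted p = 1.33e-04). Neither pair of libraries overlapped, but both calls were lost without the replicate block. Of 24 tested genes of the receptor complexes, 11 rose and TNFRSF1A alone fell, with a median log2 fold change of 0.20, and 7 rose and none fell without the block. The adaptor TRAF1 led them, at 319.5 and 304 CPM with TNF and 53.5 and 51.9 CPM without (log2 fold change 2.56 ± 0.07, SE; edgeR adjusted p = 1.71e-17). The ubiquitin ligase BIRC3 (cIAP2) was at 4246 and 3564 CPM with TNF and 1646 and 1430.0 CPM without (log2 1.34 ± 0.05). Its relative BIRC2 (cIAP1) rose 2.003-fold, and the kinase MAP3K8 rose 4.05-fold to 24.3 and 23.6 CPM. The core members TRAF2, TRADD, MAP3K7, CHUK and IKBKG were not called, with log2 fold changes of 0.12, 0.37, 0.10, −0.13 and 0.09.

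Of the 16 inhibitors and feedback genes of NF-κB tested, 11 rose and none fell, with a median log2 fold change of 0.99. TNFAIP3 (A20, an enzyme that edits ubiquitin on RIPK1) was at 271 and 281 CPM with TNF and 36 and 40.4 CPM without, 7.24-fold higher (edgeR adjusted p = 9.07e-17). NFKBIA, which encodes IκBα, was at 1029 and 853 CPM with TNF and 234 and 198 CPM without (4.35-fold; edgeR adjusted p = 1.10e-16). Both TNF libraries stood well above both unstimulated ones for each gene, and B and C differed little within a group. The deubiquitinase CYLD rose 3.65-fold, to 371 and 310.2 CPM against 95.95 and 90.4 CPM, and the A20 partner TNIP1 rose 2.95-fold. NFKBIE, NFKBIB, NFKBID, NFKBIZ, BCL3, TNIP2 and OTULIN also rose, by 1.66- to 4.36-fold, and for BCL3 the TNF and unstimulated libraries overlapped, with C higher than B in both groups. N4BP1, RNF11, ITCH, TAX1BP1 and PDLIM2 did not pass the test.

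All 5 NF-κB subunit genes rose. NFKB2, the p100 precursor of the noncanonical pathway, was at 534 and 509.9 CPM with TNF and 181 and 206 CPM without (log2 1.44 ± 0.06), NFKB1 rose 2.49-fold and RELB 2.35-fold. The rises of REL (1.74-fold) and RELA (1.46-fold) were smaller and their libraries overlapped between groups, with the same direction in B and in C. The calls of REL and RELA were both lost without the block, which left 3 of the 5. Among receptors and adaptors of innate immunity 12 of 21 rose and none fell. The kinase RIPK2, which acts downstream of NOD2, rose 3.36-fold to 122 and 125 CPM, IFNGR2 rose 2.08-fold, IRAK2 1.99-fold and IL4R 1.91-fold. NOD2 itself was at 4.19 and 4.03 CPM with TNF and 0.211 and 0 CPM without.

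Of 16 chemokines tested 13 rose and 1 fell, and their median log2 fold change of 2.26 was above those of the other ligand lists. CCL20, the ligand of CCR6, was at 315 and 179.6 CPM with TNF and 13.7 and 9.61 CPM without, 20.9-fold higher (edgeR adjusted p = 1.11e-17). CCL5, which draws T cells and monocytes, was at 341 and 320.4 CPM with TNF and 30.9 and 35.98 CPM without (log2 3.32 ± 0.09; edgeR adjusted p = 2.65e-17). CXCL8, the neutrophil chemokine IL-8, was at 262 and 171 CPM with TNF and 25.1 and 16.97 CPM without (log2 3.35 ± 0.09; edgeR adjusted p = 7.47e-17). For all 3 genes both TNF libraries lay far above both unstimulated ones. CCL2, which recruits monocytes, was at 1359 and 1840.2 CPM with TNF against 457 and 593 CPM (3.04-fold). CX3CL1 rose 4.49-fold. CXCL1, CXCL2 and CXCL3 rose 3.39-, 5.09- and 10.6-fold, but are close in sequence, so that reads fitting more than 1 of them may have been left out as multimapping. CCL28, a mucosal chemokine, was the gene that fell, to 6.62 and 5.297 CPM against 10.4 and 10.8 CPM (log2 −0.81 ± 0.15). CXCL6 and CCL7 were not called, and 4 further chemokines were below the filter on low counts.

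Of 17 interleukins, colony-stimulating factors and related cytokines 12 rose and none fell. CSF1, the macrophage growth factor, was at 979 and 1420.3 CPM with TNF and 287 and 424 CPM without (log2 1.76 ± 0.05; edgeR adjusted p = 2.59e-16). The transcript of TNF itself (chromosome 6, 31575567 to 31578336, plus strand) was at 12.02 and 19.2 CPM with TNF and 0.899 and 1.27 CPM without, 14.2-fold higher (edgeR adjusted p = 1.40e-12). EBI3, a subunit shared by IL-27 and IL-35, rose 8.61-fold to 24.9 and 23.4 CPM, and LTB, which encodes lymphotoxin-β, rose 3.39-fold. CSF2 (GM-CSF) rose 23.4-fold, with 9.29 and 7.98 CPM in TNF libraries and 0.211 and 0.566 CPM in unstimulated ones. IL1B had 23 counts in the TNF libraries together and 2 in the unstimulated ones, a ratio of 12.4 with an exact 95% counting interval of 3.06 to 108.

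In the TNF superfamily 7 of 17 tested ligands and receptors rose and TNFRSF21 (death receptor 6) fell. CD40, the receptor for T-cell CD40 ligand, was at 214 and 177 CPM with TNF and 18.3 and 16.7 CPM without (log2 3.48 ± 0.10; edgeR adjusted p = 1.23e-16). The death receptor FAS was at 153 and 130.4 CPM with TNF and 39.6 and 39.6 CPM without (3.58-fold). TNFRSF9 (4-1BB) rose 7.02-fold, CD70 2.84-fold and TNFSF9 7.33-fold, while TNFRSF21 was at 173 and 208 CPM with TNF and 269 and 315 CPM without and was not called without the block.

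Leukocyte adhesion molecules rose in 9 of 11 tested cases, with a median log2 fold change of 1.83 and no fall. SELE (ENSG00000007908, chromosome 1, 169722641 to 169764705, minus strand) encodes E-selectin, best known from activated endothelium. It was at 225 and 174 CPM with TNF and 1.903 and 2.26 CPM without, 97.4-fold higher (log2 6.61 ± 0.14; edgeR adjusted p = 4.67e-19). Of 8 endothelial markers 2 were tested and 1 was called: ESAM was at 0.911 and 1.26 CPM with TNF and 0.317 and 0.283 CPM without (edgeR adjusted p = 0.0138). That call was lost with the DESeq2 Wald test and at an adjusted p under 0.01. CDH5 was tested and not called, and CLDN5, not tested, had 5 counts with TNF and 2 without. KDR, PECAM1 and VWF, also not tested, went the other way, with 2, 1 and 0 counts with TNF and 6, 2 and 1 without. The 8 endothelial markers summed to at most 2.37 CPM with TNF and 1.16 CPM without, TEK had no count, and their part in the SELE result was not tested. ICAM1, the ligand of leukocyte integrin LFA-1, was at 2397 and 2913 CPM with TNF and 351 and 424 CPM without (log2 2.77 ± 0.05; edgeR adjusted p = 4.29e-19). SDC4, a heparan sulfate proteoglycan, was at 1845 and 1794 CPM with TNF and 505 and 518 CPM without (3.56-fold), and ALCAM rose 5.48-fold. VCAM1 was at 20.03 and 13.4 CPM with TNF and 0.952 and 0.424 CPM without. ICAM3 and CEACAM1 were not called.

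**Figure D3:**
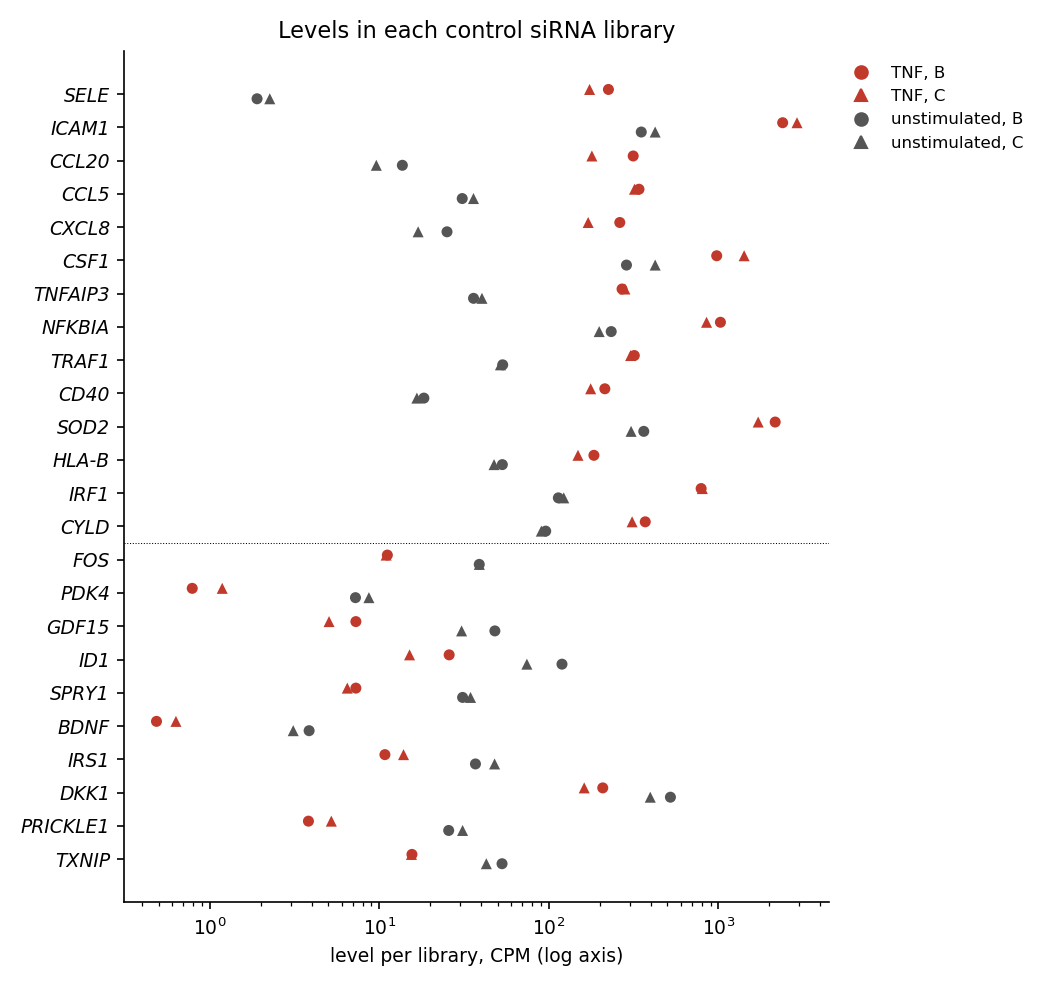
Level in each control siRNA library (x axis, CPM on a log axis) for 24 genes, with TNF libraries in red above the unstimulated libraries in grey, circles for B and triangles for C. Every gene above the dotted line is higher in both TNF libraries and every gene under it is lower in both.

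Of 15 anti-apoptotic genes 11 rose and 1 fell (BCL2L2, 1.22-fold lower), though this fall was lost without the block and without unstimulated C, TNF B or TNF C. SOD2, the mitochondrial superoxide dismutase, was at 2166 and 1719 CPM with TNF and 364 and 306 CPM without (log2 2.53 ± 0.07; edgeR adjusted p = 3.15e-17). BCL2A1, a short-lived BCL2 relative, was at 199.7 and 157 CPM with TNF and 41.9 and 35.4 CPM without (4.61-fold), and CFLAR, the inhibitor of caspase-8, rose 2.73-fold. Of 24 caspases and pro-apoptotic genes 8 rose and 2 fell, with a median log2 fold change of 0.06. The BH3-only genes BCL2L11 (BIM) and BBC3 (PUMA) were the furthest up, at 70.7 and 80.96 and 34.7 and 34.6 CPM with TNF against 13.3 and 19.7 and 7.03 and 4.74 CPM without. CASP4 rose 1.57-fold and BID 1.82-fold, while BMF and CASP2 fell 1.69- and 1.25-fold. Without the block 3 of the 24 rose and none fell, BID, BMF and CASP2 being among the calls lost, and the falls numbered 1 without unstimulated C or without TNF B.

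Of 20 tested genes of HLA class I presentation 17 rose and none fell, with a median log2 fold change of 0.61, and 11 rose without the block. HLA-B was at 185 and 149 CPM with TNF and 53.2 and 47.6 CPM without (3.302-fold; edgeR adjusted p = 1.23e-13). HLA-F rose 7.798-fold and the peptide transporter subunit TAP1 2.43-fold, while B2M, the shared light chain, rose 1.32-fold with overlapping libraries. Class I genes are near-identical in parts, so reads fitting more than 1 of them may have been left out as multimapping. Among checkpoint and NK ligands 10 of 14 rose and ULBP1 fell, a fall that was lost without the block, without unstimulated B and without TNF B. The poliovirus receptor PVR rose 2.09-fold, and CD274 (PD-L1) was at 6.74 and 5.06 CPM with TNF and 1.43 and 1.13 CPM without (4.59-fold).

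Of 15 IRF and STAT genes 7 rose and none fell. IRF1, an interferon regulatory factor that NF-κB induces, was at 792 and 805 CPM with TNF and 114 and 123 CPM without (log2 2.76 ± 0.06; edgeR adjusted p = 4.29e-19). STAT5A rose 5.21-fold and IRF5 6.96-fold. Of 39 interferon-stimulated genes 20 rose and 1 fell, with a median log2 fold change of 0.44. The guanylate-binding proteins led them, with GBP1 at 61.5 and 60.9 CPM with TNF against 11.1 and 11.1 CPM without and GBP4 4.02-fold higher, followed by the RNA sensor IFIH1 (2.98-fold) and SAMD9L (2.77-fold). Several genes that type I interferon induces strongly were not called, among them IFIT2, MX2, OAS1, RSAD2 and BST2, with log2 fold changes of 0.11, −0.07, −0.37, 0.02 and 0.07. IFIT1 fell, to 85.05 and 59.8 CPM with TNF against 107 and 73.5 CPM without, with overlapping libraries, and the call was lost without the block and without unstimulated B. These last genes were chosen after their values were seen.

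Acute-phase and complement genes rose in 7 of 10 tested cases with a median log2 fold change of 2.39, the highest of the lists, though 9 members were below the filter. PTX3, a soluble pattern receptor, was at 467 and 364 CPM with TNF and 100.2 and 74.6 CPM without (edgeR adjusted p = 1.93e-16). Serum amyloid genes SAA1 and SAA2 rose 8.01- and 10.9-fold and share most of their sequence, and complement C3 rose 5.81-fold. In the urokinase and protease list 7 of 19 rose and 2 fell. PLAU, the urokinase plasminogen activator, rose 2.64-fold. PLAT, tissue plasminogen activator, was at 12.02 and 9.65 CPM with TNF and 0.634 and 0.424 CPM without. The matrix protease ADAMTS1 fell, to 2.12 and 1.58 CPM against 10.2 and 8.34 CPM (log2 −2.31 ± 0.18; edgeR adjusted p = 2.27e-09), as did MMP14. Of 30 collagens, laminins and integrins 14 rose and 3 fell, with a median log2 fold change of 0.12. COL7A1, the collagen of anchoring fibrils, rose 2.096-fold, THBS1 1.69-fold and ITGA5 1.504-fold, while ITGA2, ITGA3 and LAMA4 fell by 1.13- to 1.39-fold. Without the block 9 of the 30 rose and 1 fell, and in the protease list 1 fell without unstimulated B.

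The immediate early genes did not move as one. Of 27 tested 17 rose and 3 fell, and 12 rose and 1 fell without the block. MAFF, a small MAF factor, was at 172 and 157 CPM with TNF and 54.2 and 52.5 CPM without (3.08-fold), the phosphatase DUSP2 rose 12.8-fold, BTG2 6.95-fold and ATF3 2.07-fold. FOS, the AP-1 subunit, went the other way, with 11.2 and 10.99 CPM in the TNF libraries and 38.9 and 38.95 CPM in the unstimulated ones (log2 −1.81 ± 0.13; edgeR adjusted p = 4.08e-10). KLF10 and FOSB also fell, by 1.23- and 1.28-fold. EGR1 and EGR2 were not called, with log2 fold changes of −0.24 and −0.46.

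ERK feedback genes were among the lists with more falls than rises, 9 against 4 of 16 tested, but 4 against 3 without the block. SPRY1, which encodes the receptor-tyrosine-kinase inhibitor Sprouty1, was at 7.28 and 6.48 CPM with TNF and 31.03 and 34.6 CPM without (log2 −2.24 ± 0.13; edgeR adjusted p = 1.43e-11). SPRY2 fell 1.69-fold, the ERK phosphatase DUSP6 1.67-fold, PHLDA1 1.42-fold, ETV1 1.65-fold and ETV5 1.46-fold. DUSP4 had no count in the TNF libraries and 6 in the unstimulated ones, at least 1.86-fold lower with 3 counts set over the group. The rises were DUSP10, a phosphatase of JNK and p38, to 22.8 and 23.6 CPM against 4.65 and 5.302 CPM, SPHK1 (3.56-fold), DUSP5 (1.79-fold) and DUSP8 (2.41-fold).

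Of 12 EGF family genes 4 rose and 2 fell, and 2 rose and 2 fell without the block. EGFR rose 1.57-fold, though not without the block, and its ligands HBEGF and TGFA rose 1.995- and 2.11-fold. The ligand AREG fell, to 5.16 and 4.51 CPM with TNF against 12.95 and 10.2 CPM without (log2 −1.26 ± 0.14). Among cAMP-responsive CREB and CRTC targets, the genes downstream of the coactivators that salt-inducible kinases phosphorylate, 3 of 20 rose and 6 fell. The falls numbered 2 without the block and without unstimulated C, and 3 without unstimulated B, TNF B or TNF C, with the DESeq2 Wald test and at an adjusted p under 0.01. The neurotrophin BDNF was at 0.486 and 0.632 CPM with TNF and 3.86 and 3.11 CPM without (6.35-fold lower; edgeR adjusted p = 1.27e-06), and SCG2, SIK1 and RGS2 fell 2.59-, 1.58- and 1.55-fold. The kinase SGK1 and the activin subunit INHBA rose 1.72- and 2.35-fold.

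Of 24 TGF-β and BMP genes 11 rose and 8 fell, against 5 and 3 without the block. Targets of BMP signalling were among the falls: ID1, an inhibitor of bHLH factors, was at 25.9 and 15.1 CPM with TNF and 119.7 and 74.3 CPM without (4.72-fold lower; edgeR adjusted p = 1.44e-12), and SMAD6, the inhibitory SMAD, was at 4.73 and 4.66 CPM with TNF and 17.4 and 18.4 CPM without. ID2 fell 1.74-fold, while ID3 rose 2.06-fold. BAMBI, a decoy receptor, rose 5.13-fold. In the Notch and Wnt list 3 of 24 rose and 6 fell. The Notch ligand JAG1 was at 457 and 436 CPM with TNF and 133 and 121 CPM without (log2 1.82 ± 0.06; edgeR adjusted p = 3.36e-15), and NRARP, a feedback gene of Notch, rose 3.58-fold, while the Notch target HES1 and the Notch-modifying LFNG fell 2.07- and 3.08-fold. DKK1, a secreted Wnt antagonist, was at 208 and 162 CPM with TNF and 522 and 397 CPM without (log2 −1.31 ± 0.06; edgeR adjusted p = 7.16e-13). Of 20 Hippo pathway genes 7 rose and 4 fell, against 1 and 0 without the block and 4 and 3 without TNF B. NUAK2 and WWC1 rose 2.28- and 2.07-fold and CCN2 fell 1.31-fold, and the calls of NUAK2, AMOTL1 and AMOTL2 were lost without the block.

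Genes of the integrated stress and unfolded protein response fell in 13 of 23 tested cases and rose in 2, whereas without the block 4 fell and none rose. TRIB3, a target of ATF4 and CHOP, was at 15.4 and 13.4 CPM with TNF and 33.5 and 24.03 CPM without (2-fold lower), CHAC1 fell 2.01-fold, STC2 1.68-fold and DDIT3 (CHOP) 1.61-fold. PPP1R15A (GADD34) and ATF5 were the rises, at 1.54- and 1.44-fold, both lost without the block, as was the fall of DDIT3. ATF4 itself was not called (log2 −0.05). GDF15 (chromosome 19, 18374731 to 18389176, plus strand), a stress cytokine that is also a p53 target, was at 7.28 and 5.06 CPM with TNF and 48.1 and 30.6 CPM without (log2 −2.66 ± 0.12; edgeR adjusted p = 2.32e-13). Of 17 p53 target genes 7 rose and 4 fell, but 5 rose and 1 fell without the block, and 2 fell without unstimulated C and without TNF C. CDKN1A (p21) and GADD45A rose 2.35- and 2.02-fold, whereas MDM2, the ligase of p53, fell 1.23-fold.

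Cell-cycle genes moved little. Of 21 cyclins, CDK inhibitors and E2F/RB genes none rose and 3 fell: the CDK inhibitor CDKN1B (p27), at 30.8 and 25.3 CPM with TNF and 63.4 and 50.4 CPM without, CCNE2 and E2F8. The calls of CCNE2 and E2F8 were lost without the block and when TNF B or TNF C was left out. Of 36 replication and mitosis genes 3 rose and 9 fell, with a median log2 fold change of −0.06. On library totals 2 rose and 16 fell, without the block none rose and 2 fell, and 1 rose without unstimulated C or TNF C. The kinesin KIF20A was at 20.4 and 23.6 CPM with TNF and 41.5 and 39.4 CPM without (1.85-fold lower), and the other 8 falls were between 1.103- and 1.42-fold. MKI67, TOP2A and PCNA were not called, with log2 fold changes of 0.15, −0.05 and 0.10.

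Of 22 glucose, FOXO and hypoxia-linked genes 9 fell and 3 rose. PDK4 (chromosome 7, 95583499 to 95596491, minus strand), a pyruvate dehydrogenase kinase, was at 0.789 and 1.19 CPM with TNF and 7.24 and 8.69 CPM without (8.15-fold lower; edgeR adjusted p = 5.66e-09). The insulin receptor substrate IRS1 was at 10.8 and 13.9 CPM with TNF and 36.95 and 47.9 CPM without (log2 −1.78 ± 0.10), and TXNIP, a brake on glucose uptake, was at 15.6 and 15.5 CPM with TNF and 53.02 and 42.8 CPM without (log2 −1.63 ± 0.10). For each of the 3 genes both TNF libraries lay below both unstimulated ones. CITED2, ARRDC3 and ANGPTL4 fell 2.696-, 2.06- and 2.01-fold. HIF1A, FOXO1 and PFKFB3 rose 1.53-, 2.804- and 1.62-fold. In the redox and aryl hydrocarbon receptor list 4 of 19 rose and 9 fell (2 and 5 without the block), with GCH1, the first enzyme of tetrahydrobiopterin synthesis, 4.35-fold higher and HMOX1, TIPARP and CYP1B1 1.92-, 1.597- and 1.45-fold lower. Cholesterol and fatty acid genes were mostly not called: 5 of 23 rose, among them HMGCS1 by 1.5-fold, INSIG1 by 1.37-fold and STARD4 by 1.66-fold, and 1 fell. On library totals 3 rose and 9 fell, which turns the balance round. Without the block HMGCS1 was the 1 gene of the list that was called, and 3 of the 23 rose without TNF B or TNF C.

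Of 10 mRNA-decay factors 3 rose and RC3H1 fell, the fall being lost without the block. The endonuclease ZC3H12A (Regnase-1) was at 32.6 and 33.5 CPM with TNF and 7.35 and 8.69 CPM without (4.15-fold), and ZC3H12C rose 1.99-fold. ZFP36 (tristetraprolin) was at 372 and 979 CPM with TNF and 157 and 440.0 CPM without, so that C exceeded B in both groups and the groups overlapped; its 2.297-fold change was called with the block and not without it. Of 17 EMT-related genes 4 rose and 2 fell, against 1 and 1 without the block. VIM rose 1.18-fold and the splicing factor ESRP2 fell 1.75-fold, neither call holding without the block, and 2 of the 17 rose without TNF C, and E-cadherin CDH1 was not called (log2 0.01). CDH16 had 16 counts with TNF and 0 without, at least 5.74-fold higher with 3 counts set over the group. Of 20 tight-junction and keratin genes 6 rose and 4 fell, with CLDN1, CGN and OCLN 1.797-, 2.34- and 1.501-fold higher and KRT80 1.604-fold lower. Without the block 4 rose, CLDN1 no longer among them, and none fell, and 1 fell without unstimulated B, TNF B or TNF C.

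Besides SELE, several genes at low levels differed widely by fold. HAND1, a bHLH factor of heart and trophoblast, had 63 counts in the TNF libraries and 0 in the unstimulated ones, at least 22.6-fold higher with 3 counts set over the group. FBLN5, an elastic-fibre protein, had 57 counts against 0 (at least 20.5-fold higher), PIK3R5 42 against 0 (at least 15.1-fold) and CDH22 34 against 0 (at least 12.2-fold). The synaptotagmin SYT2 was at 6.799 and 5.85 CPM with TNF and 0.211 and 0.0707 CPM without (40.4-fold). FRMD1 had 62 counts with TNF and 1 without, a ratio of 66.7 with an exact 95% counting interval of 11.5 to 2678; C2CD4A had 58 and 1 (62.4, interval 10.8 to 2508), IGFL1 83 and 2 (44.7, interval 11.98 to 375) and the ETS factor SPIB 75 and 2 (40.4, interval 10.8 to 339). The long noncoding RNA LINC03025 is listed under 2 identifiers, with 1282 counts against 15 for one and 242 against 3 for the other. Reads that matched both would be among the multimapping reads, which are not in these counts.

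Among the falls by fold in genes with at least 1 CPM in unstimulated cells, the zinc-finger factor OSR1 was at 0.0607 and 0.316 CPM with TNF and 1.53 and 1.98 CPM without (9.698-fold lower; edgeR adjusted p = 4.39e-05), PDK4 came next, and MEG9, BDNF and GDF15 followed. Under that level, TFAP2E and VAV3 fell too, with 1 and 2 counts in the TNF libraries together and 24 and 20 in the unstimulated ones. PRICKLE1, of the planar cell polarity pathway, was at 3.82 and 5.22 CPM with TNF and 25.7 and 31.03 CPM without (log2 −2.66 ± 0.12; edgeR adjusted p = 9.37e-14). MBLAC2 was at 2.61 and 2.53 CPM with TNF and 16.2 and 12.2 CPM without (5.56-fold lower). MEG9, ZNF503, USP51, FOXQ1 and TMEM100 fell 4.94- to 6.57-fold with at most 122 counts in the unstimulated libraries together, and the calls of FOXQ1 and TMEM100 were lost without the block.

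The next comparison asked how the TNF 4 h libraries differ from those that the file names call TNF 30 min with the same siRNA. It shares the TNF 4 h libraries with the comparison above, so the values are given side by side and the agreement of the 2 comparisons is no result. Multimapping reads were 17.6 and 30.9% of reads in the 30 min B and C libraries, against 4.94 and 41.5% in the 4 h ones. Here they differed within a letter, and their part in the calls was not tested. Of 16695 genes, 2134 were higher at 4 h than at 30 min (12.8%) and 2560 lower (15.3%), 28.1% in all. Without the block 1852 were called, 1031 higher and 821 lower, and the lower genes numbered 1701 without TNF 4 h B and 1706 without TNF 30 min B. SELE was at 1.903 and 2.26 CPM unstimulated, 8.996 and 7.93 CPM at 30 min and 225 and 174 CPM at 4 h. CCL5 was at 30.9 and 35.98 CPM unstimulated, 27.3 and 31.1 CPM at 30 min and 341 and 320.4 CPM at 4 h. ICAM1 was at 351 and 424 CPM unstimulated, 301 and 411 CPM at 30 min and 2397 and 2913 CPM at 4 h. The libraries named 30 min thus lay near the unstimulated ones for CCL5 and ICAM1, and between the other groups for SELE. NFKBIA was at 234 and 198 CPM unstimulated, 654 and 622 CPM at 30 min and 1029 and 853 CPM at 4 h (log2 difference of 4 h over 30 min 0.56; edgeR adjusted p = 1.56e-07). TNFAIP3 was at 36 and 40.4 CPM unstimulated, 149 and 161 CPM at 30 min and 271 and 281 CPM at 4 h, and IRF1 at 114 and 123, 285 and 291 and 792 and 805 CPM in the same order. All 3 genes had their middle values in the 30 min libraries.

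Immediate early genes ran the other way. Of 27 tested 13 were lower and 7 higher at 4 h than at 30 min, whereas 11 of 16 NF-κB inhibitors, 9 of 11 adhesion molecules and 18 of 20 class I genes were higher. FOS was at 38.9 and 38.95 CPM unstimulated, 63.8 and 88.8 CPM at 30 min and 11.2 and 10.99 CPM at 4 h (log2 of 4 h over 30 min −2.76). EGR2 was at 2.01 and 2.83 CPM unstimulated, 17.1 and 23.7 CPM at 30 min and 1.76 and 1.66 CPM at 4 h (11.6-fold lower at 4 h than at 30 min; edgeR adjusted p = 2.23e-12). Both genes were highest in the 30 min libraries. ZFP36 was at 372 and 979 CPM at 4 h and 1101 and 2724 CPM at 30 min, and the nuclear IκB NFKBIZ was at 106 and 111 CPM at 4 h and 309.7 and 292 CPM at 30 min. Among chemokines, CXCL2 and CXCL3 were lower at 4 h, at 41.04 and 42.6 and 12.6 and 8.38 CPM against 54.3 and 62.01 and 24.02 and 22.4 CPM at 30 min.

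**Figure D4:**
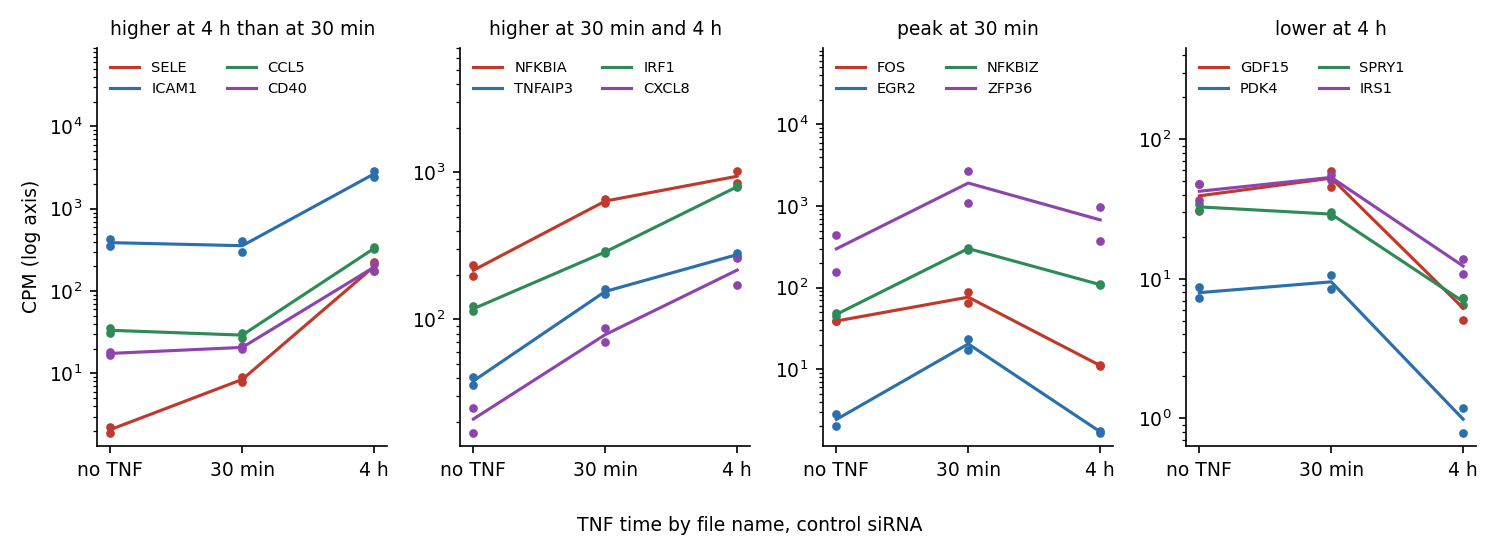
Levels (y axis, CPM on a log axis) of 16 genes in control siRNA libraries without TNF, at 30 min and at 4 h by file name, with points for the 2 libraries of a group and lines through their means. FOS, EGR2, NFKBIZ and ZFP36 are highest at 30 min, while SELE and CD40 are highest at 4 h.

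GDF15, PDK4 and IRS1, which were lower at 4 h, had higher means in the libraries named 30 min than in the unstimulated ones, a difference that was not tested. GDF15 was at 48.1 and 30.6 CPM unstimulated, 59.8 and 45.6 CPM at 30 min and 7.28 and 5.06 CPM at 4 h (8.504-fold lower at 4 h than at 30 min). PDK4 was at 7.24 and 8.69 CPM unstimulated, 10.6 and 8.41 CPM at 30 min and 0.789 and 1.19 CPM at 4 h (9.81-fold lower). IRS1 was at 36.95 and 47.9 CPM unstimulated, 51.2 and 55.5 CPM at 30 min and 10.8 and 13.9 CPM at 4 h. By fold the largest decreases from 30 min also included ZNF503 (11.1-fold), OSR1 (9.67-fold) and VAV3, which had 2 counts in the 4 h libraries together. SPIB, DAPP1, PIK3R5, HUNK and SLC8A3 had no count in the 30 min libraries and were at 2.31 and 2.93, 2.003 and 1.11, 1.15 and 1.82, 1.21 and 1.66 and 1.52 and 1.26 CPM at 4 h. ID1 was at 119.7 and 74.3 CPM unstimulated, 50.8 and 39.4 CPM at 30 min and 25.9 and 15.1 CPM at 4 h, with no overlap between the groups.

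The last comparison asked whether the 4 h response differed in cells with SIK3 siRNA, using the file names for both arms. In the SIK3 siRNA pair read as unstimulated, EGR2 was at 2.59 and 2.18 CPM and NFKBIA at 166 and 147 CPM. With control siRNA, EGR2 was at 2.01 and 2.83 CPM unstimulated and 17.1 and 23.7 CPM at 30 min. NFKBIA was at 234 and 198 CPM and 654 and 622 CPM in the same order. Which label of the SIK3 siRNA pair is right was not tested. SIK3 was at 18.3 and 22.8 CPM with TNF 4 h and 16.3 and 22.4 CPM without TNF in the SIK3 siRNA libraries, against 34.4 and 65.2 and 34.3 and 60.4 CPM in the control siRNA libraries. The difference of the responses (SIK3 siRNA minus control siRNA) passed the test for 1996 genes (12%), 1075 higher (6.44%) and 921 lower (5.52%). This difference contains the control siRNA libraries described above. Reads outside annotated genes were 16.5 and 17.1% of reads in the TNF 4 h libraries with SIK3 siRNA and 10.5 and 8.35% in the unstimulated ones with SIK3 siRNA, against 9.0 to 10.2% in the control siRNA libraries. Multimapping reads were 5.42 and 10.2% in TNF 4 h B and C with SIK3 siRNA and 5.53 and 45.3% in unstimulated B and C with that siRNA, so that in C they differed with TNF there. The part of both in the differences was not tested.

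The response of the adhesion, chemokine and class I genes was smaller with SIK3 siRNA. The difference was negative and called for 7 of 11 adhesion molecules, 9 of 16 chemokines and 13 of 20 class I genes, with none positive. How many of these list calls hold without the replicate block was not tested, and over all genes 261 of 1996 calls remained without it. CD40 changed by 1.20 on the log2 scale with SIK3 siRNA and by 3.48 with control siRNA (difference −2.27; edgeR adjusted p = 1.22e-09). It was at 39.2 and 46.9 CPM with TNF and 19.2 and 18.3 CPM unstimulated in SIK3 siRNA cells, so that the control siRNA libraries differed from these in TNF cells and little without TNF. The 2 responses were 0.22 and 2.45 for ALCAM (edgeR adjusted p = 6.91e-12), 1.26 and 3.32 for CCL5 (edgeR adjusted p = 1.09e-09) and 1.61 and 2.77 for ICAM1 (edgeR adjusted p = 8.47e-10). ALCAM was at 189 and 193 CPM with TNF and 177 and 152 CPM unstimulated in SIK3 siRNA cells, against 211 and 174 and 38.5 and 31.7 CPM in control siRNA cells, so here the unstimulated levels differed and the TNF levels overlapped. For SELE the responses were 4.04 and 6.61 (edgeR adjusted p = 0.00321), and for TNFAIP3 2.45 and 2.86 (edgeR adjusted p = 0.0258). SELE was at 6.77 and 5.13 CPM with TNF and 0.376 and 0.340 CPM unstimulated in SIK3 siRNA cells. In control siRNA cells SELE was at 225 and 174 CPM with TNF and 1.903 and 2.26 CPM unstimulated. The unstimulated SIK3 siRNA levels of SELE lay near the 0.132 and 0.209 CPM that 3 counts stand for there, so its response rests on few counts. For BIRC3 the responses were 1.37 and 1.34, with a difference of 0.03 that was not called (edgeR adjusted p = 0.839). Its levels were lower with SIK3 siRNA in both states. BIRC3 was at 2078 and 2050 CPM with TNF and 888 and 714 CPM unstimulated there, against 4246 and 3564 and 1646 and 1430 CPM in control siRNA cells.

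**Figure D5:**
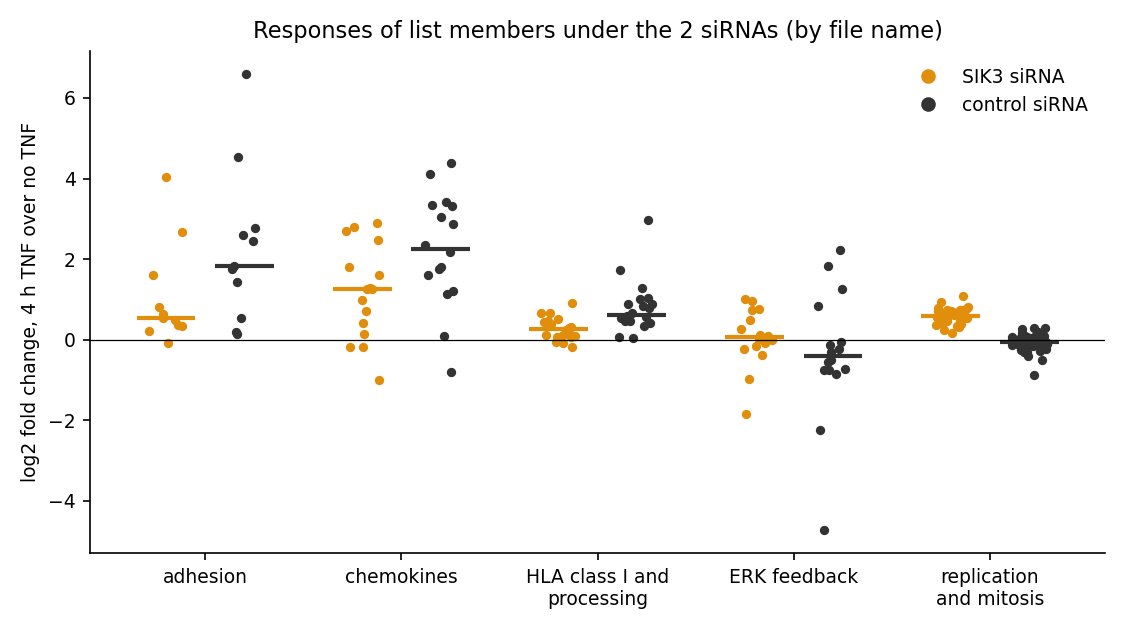
Log2 fold change at 4 h over unstimulated (y axis) of each tested member of 5 lists, with SIK3 siRNA in orange at the left and control siRNA in dark grey at the right of each list, and a bar at each median. The chemokine and adhesion medians are above 0 under both siRNAs, and the ERK feedback point at −4.73 under control siRNA is DUSP4, which had no count with TNF there.

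The fitted falls of several genes were smaller with SIK3 siRNA. GDF15 changed by −0.74 on the log2 scale with SIK3 siRNA and by −2.66 with control siRNA (edgeR adjusted p = 4.96e-08), ID1 by −0.16 and −2.24 (edgeR adjusted p = 3.39e-08), FOS by 0.13 and −1.81 (edgeR adjusted p = 2.07e-07) and SPRY1 by −0.39 and −2.24 (edgeR adjusted p = 2.91e-07). Replication and mitosis genes, which moved little with TNF in control siRNA cells, differed in 32 of 36 cases, all with the higher change under SIK3 siRNA (median difference 0.67). Unstimulated levels also differed: ID1 was at 23.5 and 20.4 CPM with TNF and 30.6 and 19.5 CPM unstimulated in SIK3 siRNA cells, against 25.9 and 15.1 and 119.7 and 74.3 CPM in control siRNA cells. HMMR was at 21.8 and 19.8 CPM with TNF and 11.9 and 11.97 CPM unstimulated in SIK3 siRNA cells, against 137 and 125 and 185 and 165 CPM in control siRNA cells. HMMR changed by 0.81 with SIK3 siRNA and by −0.42 with control siRNA, and KIF20A by 0.32 and −0.89. Without the replicate block the called differences numbered 261, 120 higher and 141 lower. They numbered 1283 without the TNF 4 h B library of the control siRNA and 1254 without the unstimulated C library of the SIK3 siRNA.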

How the data were processed

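Total RNA of PANC-1 cells was extracted with RNeasy and DNase I and made into ScriptSeq libraries, per the labels' protocols. The authors deposited 1 table of counts per library, reads per gene, made with STAR 2.05b and edgeR on GRCh38, per the submitters' processing notes. The strand setting is not given in the sources used here, so overlapping and antisense genes cannot be told apart. Each table holds 60669 identifiers and 4 summary entries, which were left out. Symbols were looked up in GENCODE 29 and in a table of gene names, without a match for 3742 identifiers.

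Counts of all 12 libraries were fitted in R 4.3.3 with edgeR 4.0.16 (filterByExpr minimum count 10, 16695 genes kept, TMM, quasi-likelihood, 5 residual degrees of freedom), with the groups and the replicate letter as a block, and adjusted p-values (Benjamini-Hochberg, over all genes tested) under 0.05 were called. The file-name letters pair the libraries: deviations from the group means correlated across genes at 0.469 to 0.661 in 15 of 15 pairs of groups, all over 0.1, where the points are genes and not replicates. Replicates differed beyond counting error, with a chi-square per degree of freedom of 15.7 to 32.3. On simulated data for TNF against unstimulated libraries, with 16406 genes, the fit recovered 71.6% of genes changed 1.5-fold, 88.1% changed 2-fold and 97% changed 4-fold. It also called 11 unchanged genes. The changed genes had a mean fitted count of at least 10, so these shares do not cover genes at low counts. Counts were drawn from the fitted means, block and spread, so the simulation cannot test whether the block or the spread is right.

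The members, lists and tests were chosen with earlier results of these data known. Named genes were up to 12 higher and 12 lower by fold (at least 1 CPM in the higher group, no overlap between groups, the same direction in B and C), up to 4 called members of each list with the smallest p, up to 5 in each direction for the other comparisons, and SIK3, TNF and its receptors. Other genes named were chosen after their values were seen. Alternatives were no block, DESeq2 1.42.0 size factors and Wald test, library totals, limma 3.58.1 voom, no filter, a filter at 1 CPM in 4 or more libraries, an adjusted p under 0.01, fewer libraries in the fit and each library left out in turn. Figures were drawn in Python 3.11.15.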

Additional observations from a re-analysis of the deposited data

Results flagged for a closer look

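The response to TNF at 4 h by file name differed between SIK3 siRNA and control siRNA, by the test of the difference itself, for 1996 genes. By fold, the log2 differences (SIK3 siRNA minus control siRNA) that stood furthest above 0 were 7.31 for the pseudogene PFDN1P1, 5.72 for the ETS factor SPDEF, 3.91 for the small nuclear RNA RNU6-9, 3.83 for TFAP2E and 3.67 for the pseudogene SSBL4P. Those furthest below 0 were −6.33 for FBLN5, −5.84 for HAND1, −4.71 for FRMD1, −4.30 for the ion channel P2RX2 and −4.28 for the glutamate transporter SLC1A3. SSBL4P was at 16.1 and 14.8 CPM in the TNF libraries with SIK3 siRNA and at most 1.09 CPM in the other 6 libraries of this comparison. The other 9 genes were under 3 CPM in all 8 libraries, and for those with no count in a group the fitted value depends on the prior count and is no measure of size. PFDN1P1, FBLN5 and HAND1 had no count in a control siRNA group, and SPDEF had none in unstimulated cells with SIK3 siRNA. Of these 10 genes 9 were no longer called with the DESeq2 Wald test, 7 without the replicate block, 6 at an adjusted p under 0.01 and 1 to 5 with 1 library left out, SPDEF in each of these cases.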

How the results depend on the processing

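Without the replicate block, TNF 4 h against unstimulated gave 1501 calls (923 higher, 578 lower), against 30 min 1852 (1031 higher, 821 lower), and the difference between siRNAs 261 (120 higher, 141 lower). On library totals 3323 genes were lower than in unstimulated cells. In the main fit with TMM, 1326 genes were lower at an adjusted p under 0.01. That threshold left 1117 differences between siRNAs (570 higher, 547 lower), and the DESeq2 Wald test gave 656 higher differences, so that 41.3% of its calls were higher against 53.9%. With DESeq2 size factors 44.1% were higher and on library totals 61.5%. With 1 library left out, the lone library of a group being taken to vary like the others, calls against unstimulated numbered 2618 to 3155 (1359 to 1582 higher, 1259 to 1575 lower), lower calls against 30 min 1701 to 2072, and differences between siRNAs 1254 to 1900 (656 to 944 higher, 594 to 956 lower). Without the block 25 of 155 genes named in the comparison with unstimulated cells were no longer called. The log2 fold change of SIK3, never called, was 0.06, against −0.014 on library totals and −0.13 to 0.22 with 1 library left out (−0.03 without unstimulated B, −0.13 without TNF C). The cause of these shifts was not tested. A gene with no count allows up to 0.158 to 0.222 CPM in these libraries.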
